A study of Mus musculus with 4 samples.

Results

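The genes described here were 10 members of the PDGF, FGF and EGF growth factor signalling systems: the ligand genes Pdgfa, Pdgfb, Pdgfc, Pdgfd and Fgf2 and the receptor genes Pdgfra, Pdgfrb, Fgfr1, Fgfr2 and Egfr. A peak was counted for a gene where the deposited annotation gave the gene's symbol as the one the peak belongs to. By this rule 24 of the 13977 PRDM6 peaks fell to 9 of the 10 genes, and Fgf2 had no peak. Pdgfc and Egfr had 6 peaks each, Fgfr2 had 4, Pdgfa and Fgfr1 had 2 each, and Pdgfb, Pdgfd, Pdgfra and Pdgfrb had 1 each. Among all 21938 protein-coding genes of the annotation 20% had a peak, and among the 10422 genes at least as long as the shortest of the 10 the share was 32.1%.

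PRDM6, a transcriptional regulator with a PR domain and zinc fingers, is found in smooth muscle. Its binding was mapped in mouse smooth muscle cells cultured from the outflow tract of late-gestation embryos, which carried a lentivirus that expresses FLAG-tagged PRDM6, so the sites are those of an added, tagged protein and not of the protein the cells make themselves. Chromatin precipitated with an antibody against FLAG (2 samples) was compared with Input chromatin (2 samples) when the authors called peaks with MACS2, and the peaks of both precipitations were then matched into 1 list. The list holds no value of Input and no expression, so the identity of the cells, which the study examined by the markers smooth muscle actin and calponin, could not be checked in these data, and a precipitation from cells without the tag was not analysed here. The study calls the precipitations independent in one place and material of the same sample in another, so the spread between them may be technical.

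Receptors for PDGF, FGF and EGF are tyrosine kinases of the cell surface that pair up when a ligand binds them and then signal through Ras, ERK and PI3K. PDGF ligands are dimers that draw in smooth muscle cells and pericytes and make them divide, and PDGFRB is the receptor by which vessel walls recruit mural cells. FGF2 and the EGF receptor also drive growth and migration of cultured smooth muscle cells, and signalling through these receptors is known to move such cells away from the contractile state.

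The strength of a peak is given as −log10 of the MACS2 p-value in each precipitation, named first-listed and second-listed after their order in the list, and the matched peak carries the weaker of both values. Reproducibility is given as the global irreproducible discovery rate (IDR), the expected share of irreproducible peaks among those ranked at least as high. Across the 24 peaks the matched −log10 p ran from 3.48 to 14.95 with a median of 5.26, beside a median of 5.53 over all peaks. A global IDR of at most 0.05 was reached by 1 of the 24 peaks (4.17%), in Fgfr2, where the share over all peaks was 3.33%. The lowest score in the list, 48, which stands for a global IDR of 0.759, was given to 11 of the 24 peaks (45.8%) and to 41.4% of all peaks. The other 23 sites were called in both precipitations but did not reach that limit.

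The sequence around the summit is shown first for the strongest of the 24 peaks and for the strongest promoter peak outside the receptors. The Fgfr2 stretch opens on a run of ga repeats, and the Pdgfc stretch is rich in cg pairs. Each stretch covers the summit of the matched peak and 100 bp on both sides, on the plus strand of mm10, with no letters in capitals. In 19 of the 24 peaks this matched summit is the midpoint of the summits of both calls, within 1 bp.
Fgfr2, intron, chr7:130215676-130215876: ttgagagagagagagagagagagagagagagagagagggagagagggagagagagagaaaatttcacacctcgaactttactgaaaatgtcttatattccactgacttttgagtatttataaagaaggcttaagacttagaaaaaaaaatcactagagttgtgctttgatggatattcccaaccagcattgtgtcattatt
Pdgfc, promoter, chr3:81036838-81037038: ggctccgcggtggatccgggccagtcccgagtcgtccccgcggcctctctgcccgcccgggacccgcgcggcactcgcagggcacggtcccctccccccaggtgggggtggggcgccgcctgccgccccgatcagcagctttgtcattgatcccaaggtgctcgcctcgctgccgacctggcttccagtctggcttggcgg

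The next stretches carry an AP-1 motif, the DNA word of FOS and JUN factors, searched as TGACTCA or TGAGTCA, which are each other's reverse complement. They are shown because 8 of the 19 peaks outside promoters held such a word, 4 of them in Egfr and 2 in Pdgfc. Capitals mark the AP-1 words and the TEAD words, searched on both strands as AGGAATGC, AGGAATGT, GGGAATGC and GGGAATGT. The AP-1 word began 91 bp and the TEAD word 24 bp to the left of the summit in the first Egfr stretch, and neither overlapped the other there or in the last Pdgfc stretch.
Egfr, antisense exon, chr11:16817399-16817599: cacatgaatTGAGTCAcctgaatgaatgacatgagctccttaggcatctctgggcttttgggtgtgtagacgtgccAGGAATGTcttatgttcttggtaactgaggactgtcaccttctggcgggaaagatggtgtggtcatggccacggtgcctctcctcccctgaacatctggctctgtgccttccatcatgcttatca
Egfr, intron, chr11:16836118-16836318: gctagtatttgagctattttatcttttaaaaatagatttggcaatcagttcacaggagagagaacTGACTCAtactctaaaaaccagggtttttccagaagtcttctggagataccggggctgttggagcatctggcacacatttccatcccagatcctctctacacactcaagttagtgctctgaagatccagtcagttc
Egfr, antisense exon, chr11:16830659-16830859: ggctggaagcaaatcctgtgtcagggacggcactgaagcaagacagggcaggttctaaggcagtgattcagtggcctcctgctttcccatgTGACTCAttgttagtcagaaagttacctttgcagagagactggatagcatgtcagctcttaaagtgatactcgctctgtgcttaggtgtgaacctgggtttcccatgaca
Egfr, upstream, chr11:16695741-16695941: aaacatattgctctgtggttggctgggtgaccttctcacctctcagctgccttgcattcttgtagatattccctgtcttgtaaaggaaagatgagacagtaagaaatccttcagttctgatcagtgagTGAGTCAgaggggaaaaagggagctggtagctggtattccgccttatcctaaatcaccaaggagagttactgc
Pdgfc, upstream, chr3:81017735-81017935: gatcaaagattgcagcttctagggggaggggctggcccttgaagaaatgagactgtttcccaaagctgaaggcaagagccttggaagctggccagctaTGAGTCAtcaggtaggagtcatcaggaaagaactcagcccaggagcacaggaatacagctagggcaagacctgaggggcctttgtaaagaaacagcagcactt
Pdgfc, downstream, chr3:81377559-81377759: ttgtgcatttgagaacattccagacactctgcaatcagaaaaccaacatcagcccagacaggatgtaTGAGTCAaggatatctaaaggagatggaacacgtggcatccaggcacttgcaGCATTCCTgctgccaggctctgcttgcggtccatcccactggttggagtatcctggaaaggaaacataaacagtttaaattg

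All 4 PDGF ligand genes had a peak, 10 in all, and 2 of the 10 were at promoters. Pdgfc, the ligand that has to be cut by a protease before it binds PDGFRA, held 6 of them. Only 4.31% of coding genes had 4 or more peaks, a number that Pdgfc, Egfr and Fgfr2 reached. Their main transcripts measure 177.6, 165.9 and 102.5 kb, and that of Pdgfd, which had 1 assigned peak, measures 208.9 kb.

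The main transcript of Pdgfc runs from chr3:81036416-81214040 on the plus strand. Its strongest peak, chr3:81036724-81037766, lay 308 bp downstream of the transcription start site (TSS), over exon 1 and an antisense transcript, with −log10 p of 7.71 and 10.89 in the first-listed and second-listed precipitation. It held 7.67 CpG per 100 bp, the most of the 24 peaks. Upstream of the gene, a peak 18.3 kb from the TSS had values of 6.92 and 9.10. Its AP-1 word covered the matched summit, the midpoint of both called summits, but neither of these, which lay 46 bp apart. A peak 3.25 kb from the TSS, over an exon of the noncoding gene Gm42476, had values of 6.15 and 3.48. The other 3 Pdgfc peaks lay 290.1, 331.5 and 340.8 kb downstream of the TSS, past the end of the gene. They gave 5.36 and 4.30, 9.28 and 4.67, and 5.42 and 9.54 in the first-listed and second-listed precipitation. The Pdgfc TSS was nevertheless the nearest of a coding gene, the middle one of these peaks carried a TEAD word, and the farthest carried both an AP-1 and a TEAD word. The stronger precipitation was the first-listed in 3 of the 6 peaks and the second-listed in the others, and the order of the Pdgfc peaks differed between them.

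Pdgfa, whose product binds PDGFRA as a dimer, had 2 peaks. The stronger, chr5:138943329-138943998, lay 51.0 kb downstream of the TSS and beyond the end of the gene, with −log10 p of 7.71 and 8.28. The other, chr5:138992566-138993040, was classed as promoter at 1241 bp from the start of a shorter transcript. From the main TSS it lay 1997 bp inside the gene, in intron 2, which is also within 3 kb. Its values were 4.28 and 4.98, and both Pdgfa peaks were stronger in the second-listed precipitation.

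Pdgfb, the ligand that endothelial cells use to recruit mural cells through PDGFRB, had 1 peak, chr15:80024252-80024414. It lay 9.44 kb upstream of the TSS inside an intron of the antisense gene Gm41361, and was the narrowest of the 24 at 163 bp, with −log10 p of 7.95 and 6.61. Pdgfd, a ligand of PDGFRB that also needs proteolytic release, had 1 assigned peak, chr9:6072231-6073000, 95.6 kb upstream of its TSS and over an exon of the pseudogene Gm9662. Its values were 6.15 and 5.84, and 90.5% of the bases of the whole peak lay in annotated repeats, where short reads are harder to place. A peak inside Pdgfd itself, over exon 4 at chr9:6333355-6334032, was assigned to Ddi1 in the deposited annotation and gave 10.23 and 5.84. Thus the only site within the Pdgfd transcript did not enter the count of the gene.

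**Figure D1:**
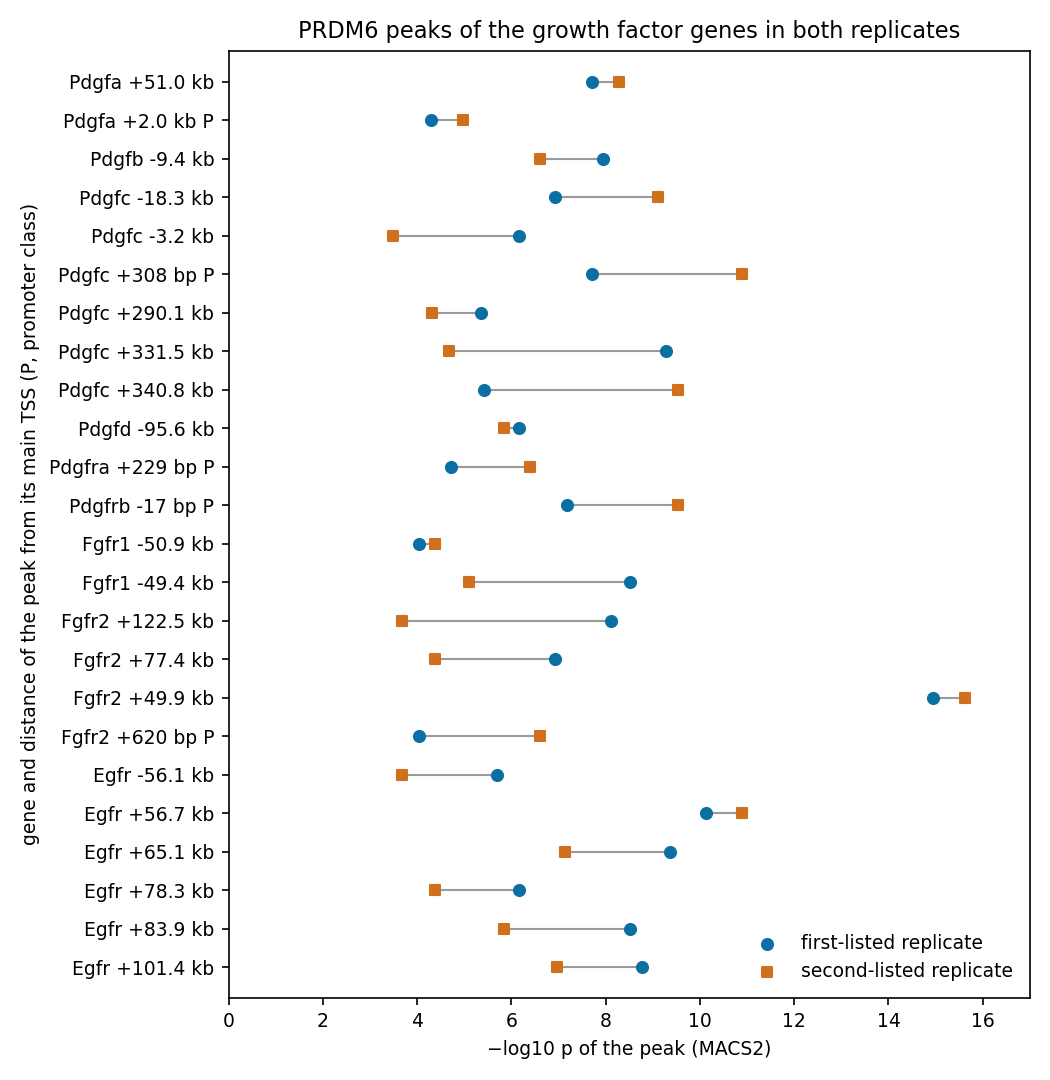
Values of −log10 p (x axis) of the 24 peaks in the first-listed (circles) and second-listed (squares) precipitation, by gene and distance from the TSS of the main transcript (y axis); P marks the promoter class and a line joins both values of a peak. The Fgfr2 peak at +49.9 kb stands to the right of all others, at 14.95 and 15.62, and the others lie below 11 in both.

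Both PDGF receptor genes had a single peak, and both peaks were at the promoter. Pdgfra, the receptor of mesenchymal progenitors and fibroblasts, had its peak at chr5:75152535-75152916, 229 bp downstream of the TSS in intron 1, with −log10 p of 4.71 and 6.39 and the lowest score in the list. Pdgfrb, the receptor of pericytes and smooth muscle cells, had its peak at chr18:61044717-61045133, reaching to within 17 bp of the TSS, with values of 7.17 and 9.54 and a global IDR of 0.347. The Pdgfrb peak was higher than the Pdgfra peak in both precipitations, with a difference of 2.46 in the first-listed and 3.15 in the second-listed. No test was made of this difference with 1 value in each precipitation.

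Of the 10 genes, 5 had a promoter peak (Pdgfa, Pdgfc, Pdgfra, Pdgfrb and Fgfr2), where 8.26% of coding genes had one. By peak rather than by gene, 5 of 24 (20.8%) were at promoters against 21.3% of all peaks, so the share by peak was near that of the whole list. The 5 promoter peaks held 2.09 to 7.67 CpG per 100 bp with a median of 5.47, beside a median of 2.04 over all promoter peaks. Among the other 19 peaks the range was 0.202 to 2.27, which overlapped that of the promoter peaks.

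Fgf2, the heparin-binding FGF known to act on smooth muscle cells, had no assigned peak over or around its main transcript at chr3:37348346-37405377. The nearest peak lay 34.3 kb upstream of the Fgf2 TSS and was assigned to Cetn4, with −log10 p of 10.42 and 7.14 and a TEAD word. Farther off, a peak assigned to Spata5 lay 155.1 kb downstream with values of 12.03 and 10.89, and one assigned to Gm12532 lay 174.6 kb upstream with values of 12.03 and 11.81 and an AP-1 word. All 3 were stronger than the median peak of the list, but none lay in the gene. An absent assignment says only that no peak passed both calls and was given to Fgf2.

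Fgfr1, the main FGF receptor of mesenchymal cells, had 2 peaks 27 bp apart about 50 kb upstream of its TSS, in an intron of the noncoding gene Gm31045. The peak chr8:25467223-25467888 gave −log10 p of 4.04 and 4.39, and its neighbour chr8:25467916-25469365, the widest of the 24 at 1450 bp, gave 8.52 and 5.10 and held an AP-1 word. Since they almost touch, they can be read as 1 region, and merging them left 23 peaks. Within the gene, a peak in intron 2 at chr8:25543174-25543523 gave 6.92 and 9.10 and held a TEAD word, but was assigned to Gm16159. It was stronger in the weaker precipitation than both assigned Fgfr1 peaks were in theirs.

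Fgfr2, the FGF receptor best known from epithelia, limb and skeleton, held the strongest peak of the set. This peak, chr7:130215237-130216292, lay in an intron 49.9 kb downstream of the TSS, which the deposited annotation numbers 4 and which is intron 6 of the main transcript. Its −log10 p was 14.95 in the first-listed and 15.62 in the second-listed precipitation, its global IDR was 0.015, and it ranked 120 of 13977. The strength was thus near equal in both. The first-listed call lay wholly inside the wider second-listed call, so both shared 33.2% of the width of the matched peak, with summits 120 bp apart. Annotated repeats made up 9.47% of the whole peak and 47.3% of the printed stretch around its summit, and the part of the repeat in the value was not tested. The promoter peak of Fgfr2, chr7:130265196-130265571, lay 620 bp downstream of the TSS in intron 1, gave 4.04 and 6.61, and was covered over 98.9% of its width by both calls. The other peaks lay 77.4 kb downstream of the TSS in an intron, at 6.92 and 4.39, and 122.5 kb downstream, past the gene's end, at 8.12 and 3.68. Apart from the strongest, all Fgfr2 peaks carried the lowest score in the list.

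**Figure D2:**
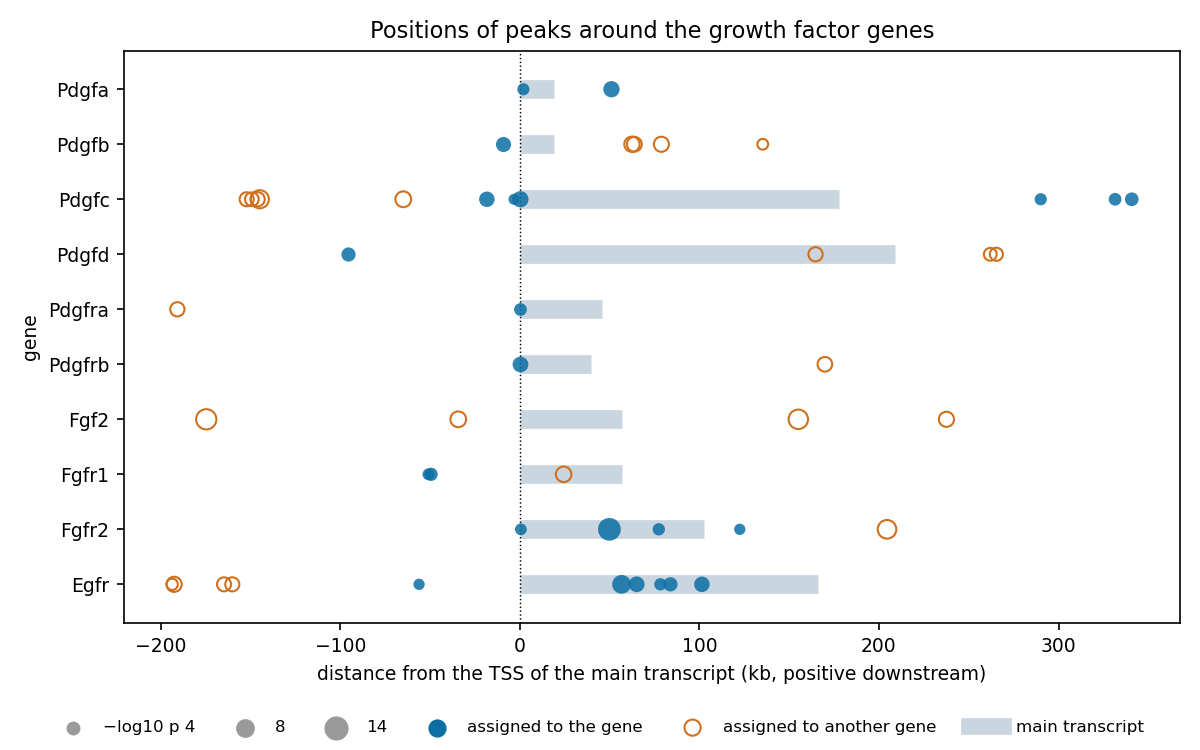
Positions of peaks relative to the TSS of the main transcript of each gene (x axis, kb, positive downstream), with pale bars for the main transcripts and circle area in proportion to −log10 p of the matched peak. Filled circles are the 24 assigned peaks and open circles nearby peaks assigned to other genes, among them 1 inside Fgfr1 and 1 inside Pdgfd; Egfr shows 5 filled circles between 56.7 and 101.4 kb from its TSS and Fgf2 none.

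Egfr, the receptor of EGF, TGF-alpha and HB-EGF, had 6 peaks, and none was at its promoter. Of the 6, 5 lay in intron 1 of the main transcript, an intron of 106.3 kb that makes up 64.1% of the transcript at chr11:16752211-16918158. The strongest, chr11:16808891-16810332, lay 56.7 kb downstream of the TSS with −log10 p of 10.14 and 10.89, a global IDR of 0.141 and rank 893 in the list. Its neighbour 65.1 kb downstream, over an exon of the antisense transcript Egfros, gave 9.37 and 7.14 and held both an AP-1 and a TEAD word. Another Egfros exon, 78.3 kb downstream, gave 6.15 and 4.39, and the intronic peak 83.9 kb downstream gave 8.52 and 5.84. The last of the intron, 101.4 kb downstream, gave 8.77 and 6.96 and was the only one of the 24 whose nearest coding TSS belonged to another gene, Fbxo48. The peak outside the gene, chr11:16695633-16696126, lay 56.1 kb upstream at 5.69 and 3.68. The first-listed precipitation was higher in 5 of these 6 peaks, whereas over all 24 it was higher in 13 (54.2%) and over the whole list in 52.1%.

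The 4 peaks of the set that the deposited annotation placed in exons were the pair in Egfros and those in Gm42476 and Gm9662, so each was placed in an exon of a noncoding transcript and not of the assigned gene. The Egfros pair lay within intron 1 of Egfr, and the other 2 lay upstream of Pdgfc and Pdgfd. By class, 8 of the 24 peaks (33.3%) were in introns against 35.9% of all peaks, 7 (29.2%) were distal against 37.2%, and 4 (16.7%) were in exons against 4.10%. On the main transcripts 11 of the 24 overlapped the assigned gene, 10 of them in an intron, and 8 lay upstream of the TSS.

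AP-1 words within 100 bp of the matched summit were found in 8 of the 24 peaks (33.3%), where 14.3% of all peaks held one. In this window none of the 5 promoter peaks had the word, against 8.33% of all promoter peaks. Of the other 19 peaks 8 (42.1%) had it, against 15.9% of all peaks outside promoters. Egfr had the word in 4 of its 6 peaks, and without Egfr the count was 4 of 18 (22.2%). Peaks of 1 gene are not independent sites, and the window sets the count. Within 250 bp of the matched summit 13 of the 24 held the word where 30.7% of all peaks did. Over its whole width the Pdgfrb promoter peak held the word as well. Around the summits of the first-listed and second-listed calls 9 and 8 of the 24 held it, against 13.3% and 12.3% of all peaks. The Fgfr1 word lay more than 100 bp from both called summits of its peak, which were 508 bp apart. Within 100 bp of the matched summit TEAD words were found in 3 peaks (12.5%, against 7.45% of all peaks). A pair of them was in Pdgfc and the other in Egfr. The words TTTCAT and TTTCCT were found in 10 (41.7%, against 43.1%). A CArG box, the site of serum response factor, was found only in the distal Fgfr2 peak, where 1.41% of all peaks held one. A word is a match of letters and not a measured factor.

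Values in both precipitations differed by a median of 2.10 on the −log10 p scale over the 24 peaks, against 1.999 over all peaks. The rank order was loosely shared, with a Spearman correlation of 0.398 over the 24 peaks and 0.263 over all, given as a description since the peaks share 1 pair of libraries. The summits of both calls lay a median of 142.5 bp apart, against 121 bp, and by more than 200 bp in 9 of the 24 (37.5%), against 34.8% of all peaks. Sequence words were read around 1 matched summit for each peak, in 19 of the 24 the midpoint of both within 1 bp. Where the called summits lay more than 200 bp apart, a window of 100 bp around that midpoint reached neither. Some of the p-values could be turned back into the number of fragments stacked at the summit, because MACS2 derives p from a Poisson tail. With a fixed background of 2.61 fragments in the first-listed and 2.39 in the second-listed precipitation, 14 and 11 of the 24 values matched whole heights of 10 to 17 and 10 to 18 fragments, within 0.0002 on the −log10 scale. Over all peaks 58.3% and 63.5% of the values matched a whole height, with medians of 14 and 13 fragments, against medians of 13.5 and 12 for the 24 peaks. The total depth of the libraries is unknown.

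**Figure D3:**
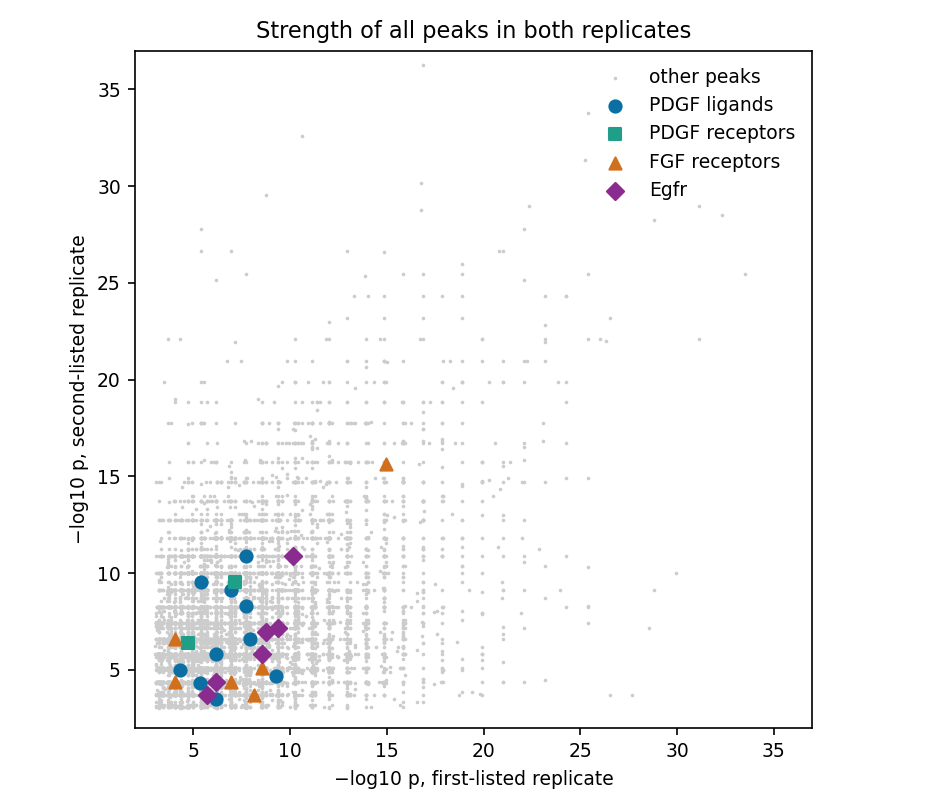
Strength of all 13977 peaks in the first-listed (x axis) and second-listed (y axis) precipitation, both as −log10 p, with the 24 peaks coloured by role and all others in grey. The Fgfr2 peak at 14.95 and 15.62 lies near the diagonal, the Egfr peak at 10.14 and 10.89 is the next along it, and 5 of the 6 Egfr points lie on the side where the first-listed value is higher.

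The wider pathway was read from a list of 92 genes by role. A peak was assigned to 44 of them (47.8%), against 20% of coding genes and 32.1% of those as long as the shortest of the 10 genes, with 159 peaks in all. A promoter peak was assigned to 22 (23.9%), against 8.26% of coding genes. Inhibitors and feedback genes had the largest share of the roles, 12 of 14 genes with 48 peaks, where 1 of the 14, Spry3, was not matched in the coding annotation and is counted as a gene without a peak. Among them were Dusp6 with 8 peaks and Dusp4 with 7, the phosphatases that switch off ERK and its relatives, Spred1 with 7, a brake on Ras, and Rasa1 with 7, a Ras GTPase-activating protein. EGF family ligands followed in count with 7 of 11 genes, among them Nrg1 with 13 peaks, Ereg with 5 and Epgn with 2. Of the PI3K and Akt genes 5 of 8 had a peak, with 10 for the regulatory subunit Pik3r1. Of the adaptors 6 of 12 had one, with 8 for Gab1, 3 for Frs2 and 2 for Sos1.

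The share was lower for the remaining roles. Of 9 genes of the Ras and ERK cascade 3 had a peak, among them Braf with 2 and Map2k1 with 1. Other FGF genes had one in 6 of 21 cases, led by Fgf9 with 5, Fgf7 with 4 and Fgf1 with 3. Of 7 nuclear factors 3 had one, Elk3 with 5, Etv5 with 3 and Etv1 with 1, and of 3 coreceptors only Nrp1, with 7. Among 7 other receptors and receptor-like genes Erbb4 alone had peaks, and it had 14. These shares are counts with no test, and those of the Ras and ERK genes (33.3%) and other FGF genes (28.6%) stood beside 20% of all coding genes.

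A global IDR of at most 0.05 was reached by 6 of the 159 peaks (3.77%), in 5 genes, a share near the 3.33% of all peaks. Distances here are to the TSS used in the deposited annotation. The peaks were 2 of Erbb4, the strongest at a matched −log10 p of 16.89 and 266.7 kb upstream of the TSS, and 1 each of Fgf23 at 18.89 and 14.7 kb upstream, Rasa1 at 15.85 and 69.7 kb upstream, Nrg1 at 14.71 and 253.8 kb upstream, and Fgf9 at 13.08 and 423.1 kb downstream. The Fgf23 peak had the highest score that the list allows, 1000.

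**Figure D4:**
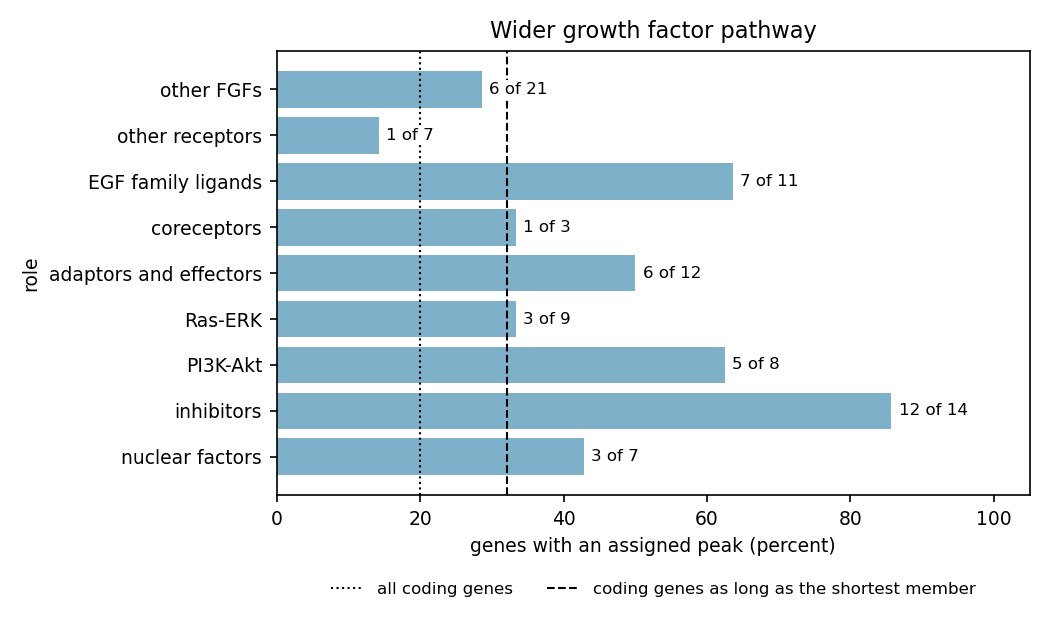
Share of genes with an assigned peak (x axis, percent) for each role of the wider pathway list (y axis), with the number of genes beside each bar, a dotted line at the 20% of all coding genes and a dashed line at the 32.1% of coding genes as long as the shortest of the 10 genes. Inhibitors reach 85.7%, and other receptors, at 14.3%, lie under both lines.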

How the data were processed

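PRDM6 ChIP (2 samples) and Input (2 samples) were sequenced from the cells described above. Per the submitters' notes reads were mapped to mm10 with BWA and peaks called with MACS2, versions not given in the sources used here, and the authors matched both precipitations by IDR into 1 deposited list. Its columns hold the IDR score (a scaled −log2 of the global IDR, capped), −log10 p-values of the matched peak and of each replicate as the authors deposited them, and distances to a TSS. The column headed as a q-value repeats the −log10 p of the second-listed replicate in every row, and columns filled with a placeholder were left out. Which sample is first-listed is not stated. Input entered through the authors' peak calls alone, and 0 columns of other samples were found.

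From this list peaks were counted by gene symbol with pandas 2.3.3 and SciPy 1.17.1 under Python 3.11.15. Main transcripts, coding genes and sequence came from the reference for the same build (GENCODE for mm10); of 7291 transcripts named in the list 3989 were found there, and these had the same start and end. A promoter is the class of the deposited annotation, within 3 kb of a TSS. The genes and the pathway list were chosen with earlier results of these data known. All 10 genes were named, and of the pathway list those with a peak at a global IDR of at most 0.05 and up to 3 of each role with most peaks. Sequences shown are a choice from those the rule for printing allowed (promoter, reproducible or motif-bearing peaks). Some genes and a sequence that these rules name are not reported here. No test was made, since the list has 1 value for each replicate and none for Input. The recovery of fragment heights and the motif search were tested on simulated data. Alternatives covered the IDR limit, distance, assignment, promoter rule, replicate, motif window and each gene left out.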

Additional observations from a re-analysis of the deposited data

How the results depend on the processing

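No paired analysis was possible because the list holds no value of the Input group and its columns name no replicate number. Of 48 alternatives 34 left a count within 1.5 times its value, or the median within 1.48 of its value, and 14 did not. The 1.48 is the median SD between both values of a single peak, a wide limit for a median over 24 peaks. With each gene left out in turn the median −log10 p was 4.90 to 5.63. With a global IDR limit of 0.05 the 24 peaks became 1, the 9 genes 1 and the 44 pathway genes 5, and at 0.01 they became 0, 0 and 3, where the count of 1 reproducible peak also became 0. Within 10 kb of the TSS used in the deposited annotation 8 peaks were left (7 by the main TSS, added after seeing the data), and 11 among those above the median strength of all peaks. The median −log10 p of 5.26 became 7.04 in the first-listed replicate alone, where the median of all peaks went from 5.53 to 6.92, since the matched value is the weaker of both. Any GENCODE TSS within 3 kb raised promoter peaks from 5 to 8. AP-1 peaks rose from 8 to 13 within 250 bp of the summit (30.7% of all peaks) and to 13 over whole peaks (34.3%). Counting by overlap with the annotated gene or 10 kb around it gave 36 peaks, 23 of them in Fgfr2, whose annotated span is 2961 kb. Overlap with the main transcript or 10 kb around it, also added then, gave 16 peaks in 9 genes, and 3 of these peaks lay at Fgfr2. Depth is unknown, so a gene without a peak is one where none was detectable here.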

Other observations

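The EGF family ligand genes Epgn, Ereg, Areg and Btc are neighbours in mouse. Between chr5:91036607-91332824, a span of 296.2 kb, 9 peaks were assigned to these 4 genes. Ereg, which encodes epiregulin, a ligand of EGFR and ERBB4, held 5 of them, and 4 of the 5 were in the promoter class, which holds 21.3% of all peaks. These 4 lay around 1 TSS, with matched −log10 p of 3.75 to 5.10. All 4 had the lowest score in the list, 48, which 41.4% of all peaks had. The strongest of the 9 was the Epgn peak at chr5:91037957-91038978, with −log10 p of 9.37 in the first-listed and 13.97 in the second-listed precipitation. None of the 9 reached a global IDR of 0.05, and their matched −log10 p ran from 3.75 to 9.37. The locus was chosen after its values were seen, and the peak number was not compared with other spans of that size.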
